A study of Homo sapiens with 4 samples.

Results

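A set of 10 genes of cellular iron handling was described in HCT116, a human line from colon cancer: TFRC, STEAP3, SLC11A2, FTL, NCOA4, SLC40A1, ACO1, IREB2, FBXL5 and ISCU. Every probe set listed for exactly 1 of these 10 genes was taken, which gave 22 of the 54675 probe sets on the array and covered 9 genes. IREB2 had no probe set listed for it alone and was not analysed here. Both groups had spent 24 h in medium free of serum, which was followed by 72 h under hypoxia (1% oxygen) or under normoxia (21% oxygen). The labels name no genetic change in either group. Each group held 2 arrays, labelled exp A and exp B in both groups, and no source says whether A and B were separate cultures. P-values therefore measure only the spread between these arrays, which may be technical. A whole culture was measured on each array, so fewer cells that express a gene and less RNA per cell cannot be told apart.

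Cells take up iron bound to transferrin through the transferrin receptor, reduce it in the endosome and move it into the cytosol, where it is used, stored in ferritin or exported. Iron regulatory proteins bind short hairpins called iron-responsive elements when iron is scarce, which stabilises the mRNA of the transferrin receptor and blocks translation of ferritin and of the exporter ferroportin. Much of the imported iron goes into iron-sulfur clusters and heme in mitochondria. Several genes of this system, TFRC among them, are known targets of the hypoxia-inducible factors, which bind a short core sequence in DNA.

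Each probe set has 1 MAS5 signal per array, used as deposited. These signals are linear, and every array has the same trimmed mean. A probe set was tested if its mean over the 4 arrays was at least 97.4, the median of all probe set means. Differences are hypoxia minus normoxia on the scale of log2(signal + 23.7), which understates the change of low signals. They were tested with limma over all 27304 probe sets that passed, and calls required a p below 0.05 after Benjamini-Hochberg adjustment. Of all tested probe sets, 13.7% were called higher in hypoxia and 17.1% lower, 30.8% in all.

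Of the 22 iron gene probe sets, 19 were tested and 3 lay below the filter. Among the 19 tested, 7 were called higher, 4 were called lower and 8 were not called. The hypoxia and normoxia values did not overlap for 14 of them, beside 68.5% of all tested probe sets. With 1 probe set per gene, the one with the highest mean, 5 of 9 genes were called, 3 higher (TFRC, STEAP3 and FTL) and 2 lower (SLC11A2 and ISCU), beside 38.0% of 12636 genes. Of the 19, 4 passed the filter through 1 group alone (TFRC 240686_x_at, SLC11A2 210047_at, SLC40A1 233123_at and FBXL5 209005_at), so a count over tested probe sets is no count over the genes.

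**Figure D1:**
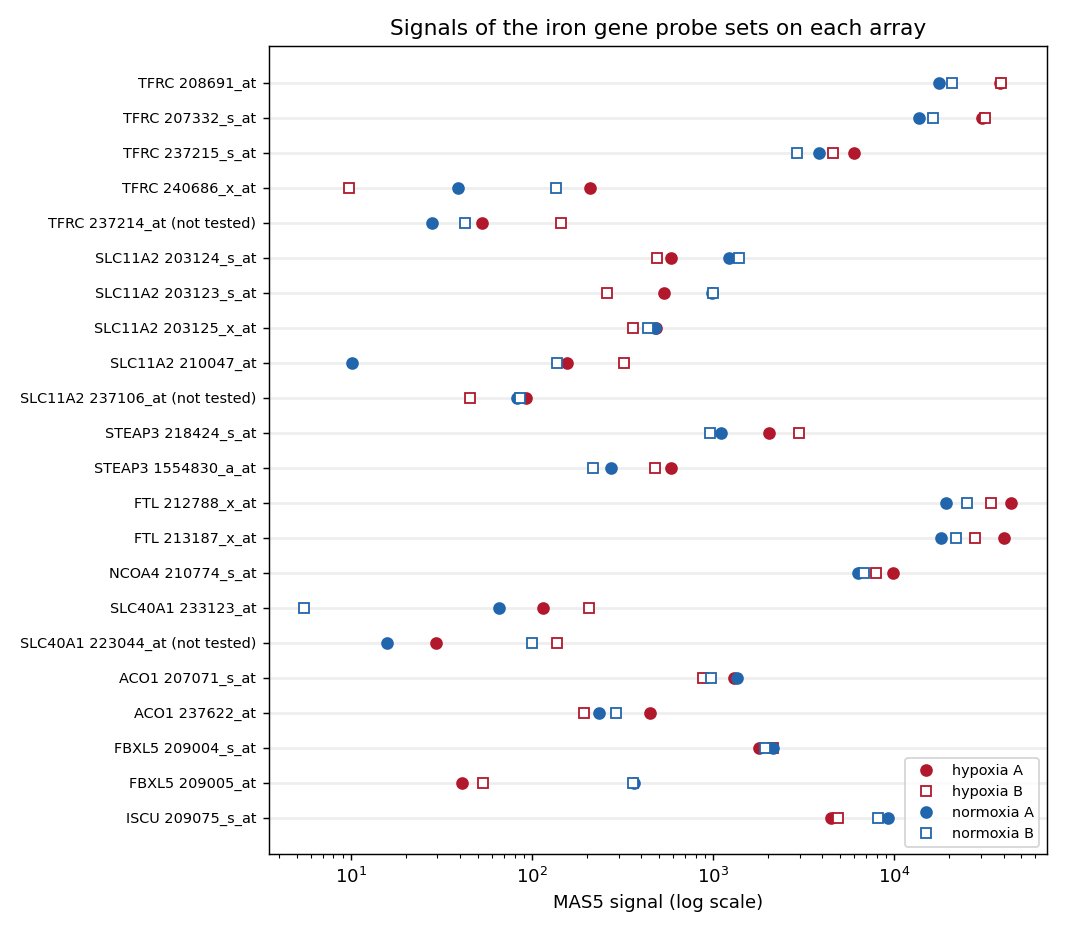
MAS5 signal of each of the 22 probe sets on each array, on a log axis; red marks hypoxia, blue marks normoxia, filled circles are A arrays and open squares are B arrays. The 2 bright TFRC sets read 30516 or more in hypoxia and 20812 or less in normoxia, and ISCU reads 4879 or less in hypoxia and 8152 or more in normoxia.

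Several facts of the arrays bear on every value. The highest signal among the Bacillus control probe sets was 305 and 226 on hypoxia arrays A and B, against 45.7 and 121 on normoxia arrays A and B. The mean log2 signal of the hybridization control probe sets was 13.27 and 13.07 in hypoxia, against 11.25 and 12.17 in normoxia. Of 8 epithelial markers, 7 lay above the highest Bacillus signal on all 4 arrays (VIL1 did not), and 4 were called higher (ELF3, CDH1, KRT19 and EPCAM). Their summed signal was 128170.0 and 116952 in hypoxia, against 80275 and 94115 in normoxia. Of 7 measured markers of other cell types, 4 lay above it on no array and 1, COL1A1, on all 4, and their summed signal was 2236 and 2706 in hypoxia against 704 and 1119 in normoxia. The part of these shifts in the results was not tested. The median SD of log2 signals over tested probe sets was 0.304 in hypoxia and 0.173 in normoxia, while the fit takes a common variance for both groups. In fits without a normoxia array, the spread comes from the hypoxia arrays alone.

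Directions were relative to the other genes on the array. The median difference over all tested probe sets was 0.05 with the signals as deposited, and -1.30 when each array was scaled to its hybridization controls. Under that scaling all 7 higher calls of iron gene probe sets turned to negative values that were not called (-0.81 to -0.19), and over all probe sets 1.07% of calls were higher, against 44.5% with the signals as deposited. Relative to the median of all probe sets, the 7 stayed positive under each scaling run. Without an intensity trend in limma's variance model, only SLC11A2 203124_s_at and FBXL5 209005_at stayed called.

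TFRC encodes transferrin receptor 1, which binds iron-loaded transferrin at the cell surface and carries it into endosomes. It lies on chromosome 3 at 196049284 to 196082090 (GRCh38.p14). Its transcript signal was higher in hypoxia on 3 of 4 tested probe sets, about 2-fold on the brighter pair. Probe set 208691_at read 38139 and 38908 on hypoxia arrays A and B, against 17573 and 20812 on normoxia arrays A and B. Both hypoxia arrays lay far above both normoxia arrays. The means were 38523.5 ± 544 in hypoxia and 19192 ± 2290.4 in normoxia (SD, n = 2 each), a 2.01-fold ratio. The log2 difference was 1.01 ± 0.19 (SE, 95% confidence interval 0.58 to 1.44, limma adjusted p = 0.00393).

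The second bright TFRC set, 207332_s_at, read 30516 and 31639 in hypoxia, against 13610.3 and 16289.7 in normoxia. The groups did not overlap and differed by 1.06 ± 0.19 (SE, limma adjusted p = 0.00287). The response of 208691_at minus that of 207332_s_at was -0.05 ± 0.08, which was not called. Another set, 237215_s_at, read 5969 and 4574 in hypoxia, against 3853 and 2906 in normoxia. Here too the groups did not overlap, and the set was called higher, by 0.64 ± 0.21 (SE, limma adjusted p = 0.0446). The remaining pair was dim and scattered. Probe set 240686_x_at read 209 and 9.80 in hypoxia, against 39.1 and 135 in normoxia, a difference of -0.17 ± 1.14 that was not called. Probe set 237214_at, below the filter, read 52.9 and 144 in hypoxia, against 28.1 and 42.5 in normoxia.

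By rank from the brightest of 54613 probe sets, 208691_at stood at 232 and 214 in hypoxia, against 289 and 297 in normoxia, so its place moved up as well. After quantile normalization, which gives every array the same set of values, its difference was 0.28 (limma adjusted p = 0.0479). That of 207332_s_at was 0.50, and both were still called. The brightest signals were higher as a class, with a 99.9th percentile of 63258 and 62091 in hypoxia, against 26009 and 37482 in normoxia. The smaller call on 237215_s_at was lost without hypoxia array A (0.45) and without normoxia array B (0.44), and the mean of all 4 tested TFRC sets (0.63) was not called.

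The 250 bases before the annotated TFRC start are shown because TFRC is among the called genes and these bases hold 1 copy of ACGTG, the core letters of a hypoxia-response element. They were searched for ACGTG and GCGTG on both strands, and matches are in capitals. The stretch is chr3:196082091-196082340 of GRCh38.p14, minus strand, from RefSeq, and is followed by the matching stretch of FTL, chr19:48965059-48965308, plus strand.
TFRC: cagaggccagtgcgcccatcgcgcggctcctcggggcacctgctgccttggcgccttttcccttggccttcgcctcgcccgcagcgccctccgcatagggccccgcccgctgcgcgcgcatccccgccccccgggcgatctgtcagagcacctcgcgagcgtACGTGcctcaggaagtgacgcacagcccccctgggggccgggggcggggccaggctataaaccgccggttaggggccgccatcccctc
FTL: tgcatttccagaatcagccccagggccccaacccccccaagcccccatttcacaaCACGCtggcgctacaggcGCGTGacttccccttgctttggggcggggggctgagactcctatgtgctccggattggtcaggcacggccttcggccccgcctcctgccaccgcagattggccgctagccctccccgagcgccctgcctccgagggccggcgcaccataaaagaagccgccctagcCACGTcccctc
The FTL stretch holds ACGTG on the opposite strand, read here as CACGT, beside 2 copies of GCGTG, 1 of them on the opposite strand as CACGC. Of the 15 windows of these genes, 3 held ACGTG (those of TFRC, FTL and FBXL5), near the 18.5% of all 35116 windows that held it. Either core stood in 8 of the 15, beside 43.2% of all windows. A match describes the letters and is no evidence of binding.

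STEAP3, the endosomal ferrireductase that turns ferric into ferrous iron after transferrin lets it go, was higher in hypoxia on both of its probe sets. It lies on chromosome 2 at 119223834 to 119265652. Probe set 218424_s_at read 2037 and 2986 in hypoxia, against 1099.9 and 954 in normoxia, a 2.45-fold ratio of means. Both hypoxia arrays lay above both normoxia arrays, by 1.25 ± 0.23 (SE, limma adjusted p = 0.00359). Probe set 1554830_a_at read 585 and 475 in hypoxia, against 274 and 216 in normoxia, a difference of 1.04 ± 0.34 (SE, limma adjusted p = 0.0454). The pair differed by 0.20 (95% confidence interval -0.74 to 1.15), which was not called. After quantile normalization 218424_s_at kept a difference of 1.37. The call on 1554830_a_at was lost without hypoxia array A (0.90), normoxia array A (1.20) or normoxia array B (0.89).

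SLC11A2 encodes DMT1, the transporter that moves ferrous iron out of the endosome and, in the gut, into the cell. It is known to be made in forms with and without an iron-responsive element in the mRNA, and the sources used here do not say which form each probe set reads. Of its 4 tested probe sets 2 were lower in hypoxia, and 2 were not called. Probe set 203124_s_at read 585 and 486 in hypoxia, against 1226 and 1394 in normoxia. Probe set 203123_s_at read 532 and 257 in hypoxia, against 979 and 997 in normoxia. On both sets each hypoxia array lay below each normoxia array. The differences were -1.26 ± 0.24 for 203124_s_at (SE, limma adjusted p = 0.00388) and -1.36 ± 0.34 for 203123_s_at (SE, limma adjusted p = 0.0158).

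Probe set 203125_x_at, whose suffix marks probes that may bind other transcripts, read 482 and 359 in hypoxia, against 478 and 436 in normoxia. The groups overlapped, and the difference was -0.13 ± 0.31 (95% confidence interval -0.83 to 0.58). Probe set 210047_at read 156 and 322 in hypoxia, against 10.2 and 137 in normoxia, a difference of 1.76 ± 0.87 that was not called. It passed the filter through hypoxia alone and exceeded the highest Bacillus signal on 2 of 4 arrays, so comparisons with it rest on signals near background. The dimmest set, 237106_at, was not tested and read 93.0 and 45.3 in hypoxia, against 82.1 and 85.7 in normoxia. Tested directly, the response of 203124_s_at differed from that of 203125_x_at by -1.13 ± 0.37 and from that of 210047_at by -3.02 ± 0.83, and neither difference was called after adjustment over 16490 pairs of probe sets of 1 gene, so unlike responses of the SLC11A2 sets were not shown. The difference from 210047_at was called with the letters A and B as a replicate block (-3.02), with 100 as the added constant (-2.18) and without hypoxia array A (-3.61). The call on 203124_s_at was lost without normoxia array B (-1.17) and when the log2 values of all tested SLC11A2 sets were averaged (-0.25), and the call on 203123_s_at without either normoxia array (-1.37 without A and -1.34 without B).

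**Figure D2:**
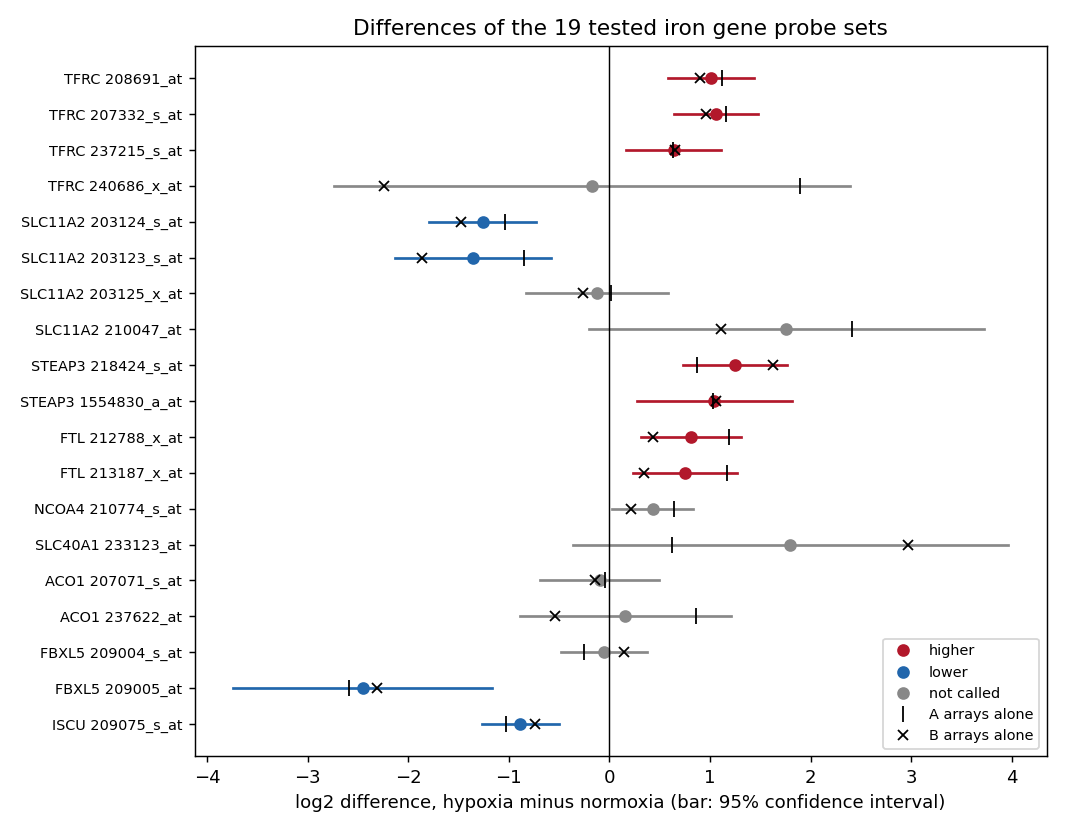
Log2 difference, hypoxia minus normoxia, of the 19 tested probe sets with 95% confidence intervals from limma; red marks sets called higher, blue sets called lower and grey sets not called, and ticks and crosses give the A and the B arrays alone. The STEAP3 and FTL sets and all TFRC sets but 240686_x_at (-0.17) lie right of 0 with the signals as deposited (left of it when scaled to the hybridization controls), while 2 SLC11A2 sets, FBXL5 209005_at and ISCU lie left of it.

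FTL, the ferritin light chain, forms the iron storage shell together with the heavy chain FTH1, which had no probe set listed for it alone. FTL lies on chromosome 19 at 48965309 to 48966879. Both FTL sets carry the suffix for probes that may bind other transcripts, and both were higher in hypoxia. Probe set 212788_x_at read 44069 and 34047 in hypoxia, against 19355 and 25166 in normoxia. Probe set 213187_x_at read 40397 and 27798 in hypoxia, against 18010.5 and 21911 in normoxia. The groups did not overlap on either set, but hypoxia array A lay well above hypoxia array B on both. The differences were 0.81 ± 0.22 (SE, limma adjusted p = 0.0217) and 0.75 ± 0.23 (SE, limma adjusted p = 0.0340), and they were 1.19 and 0.44 for 212788_x_at within the A and the B arrays.

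The FTL difference depended on the scale. By rank from the brightest, 212788_x_at stood at 191 and 254 in hypoxia, against 223 and 226 in normoxia, so its place among probe sets overlapped between the groups. After quantile normalization both differences were 0.02 and neither was called. Both calls were also lost without hypoxia array A (0.62 and 0.48). The brightest signals were higher as a class: the 99.9th percentile was 63258 and 62091 in hypoxia, against 26009 and 37482 in normoxia.

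The start of the FTL transcript is known to carry an iron-responsive element whose loop has the letters CAGTGN. It is shown because FTL and TFRC mRNAs answer to the same proteins through such elements at opposite ends. The loop was found once in the first 50 transcribed bases, inside chr19:48965329-48965358 of GRCh38.p14, plus strand, and stands in capitals below. The same letters were found in that stretch of 1 of the NCOA4 windows and of 6.48% of all windows.
FTL element: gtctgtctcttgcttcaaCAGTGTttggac

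NCOA4, the receptor that delivers ferritin to lysosomes for iron release, read 9863 and 7920.1 in hypoxia on 210774_s_at, against 6313 and 6809.9 in normoxia. The groups did not overlap, but the difference of 0.43 ± 0.18 was not called (SE, limma adjusted p = 0.100). It was called after scaling to the 75th percentile (0.58) and without hypoxia array B (0.59).

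SLC40A1, ferroportin, is the known iron exporter of vertebrate cells, and its signals were low. Probe set 233123_at read 114 and 205 in hypoxia, against 65.7 and 5.52 in normoxia. Its difference of 1.80 ± 0.96 was not called (SE, limma adjusted p = 0.184), and it exceeded the highest Bacillus signal on 1 of 4 arrays. Probe set 223044_at, not tested, read 29.4 and 136 in hypoxia, against 15.8 and 99.6 in normoxia. No difference in ferroportin transcript was detectable at these signals.

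ACO1 encodes iron regulatory protein 1, which is a cytosolic aconitase when it holds an iron-sulfur cluster. Probe set 207071_s_at read 1298 and 879 in hypoxia, against 1343 and 975 in normoxia. Probe set 237622_at read 445 and 192 in hypoxia, against 235 and 291 in normoxia. The groups overlapped on both sets. The differences were -0.10 ± 0.26 and 0.16 ± 0.46, and neither was called.

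FBXL5, the iron-sensing subunit of the ubiquitin ligase that degrades iron regulatory proteins when iron is plentiful, gave unlike results on its pair of probe sets. Probe set 209004_s_at read 1783 and 2133 in hypoxia, against 2131 and 1931 in normoxia. These groups overlapped, and the difference was -0.06 ± 0.19 (95% confidence interval -0.48 to 0.37). Probe set 209005_at read 41.0 and 53.7 in hypoxia, against 366 and 361 in normoxia. Both hypoxia values lay below the highest Bacillus signals of their arrays, and the set passed the filter through normoxia alone. Its difference was -2.45 ± 0.57 (SE, limma adjusted p = 0.0107). The size depends on the added constant: it was -2.93 with 1 and -1.65 with 100 in place of 23.7.

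Against the mean log2 of the highest Bacillus signals of both hypoxia arrays, 209005_at was at least 1.38-fold lower in hypoxia. This set entered the tests only through the group where it was high. The p-values of 209005_at and of its pair are therefore not taken as support for unlike FBXL5 responses. The response of 209004_s_at exceeded that of 209005_at (limma adjusted p = 0.0277), by a size that also depends on the added constant: 2.40 with 23.7, 2.87 with 1 and 1.60 with 100. This was the only one of 16 pairs of iron gene probe sets that was called, beside 3.43% of the 16490 pairs in the table. It was lost without normoxia array A (2.46) or B (2.34), as was the call on 209005_at (-2.44 and -2.46), and it could not be computed with a filter at the 75th percentile of means, which 209005_at does not pass. The mean of both sets was called lower (-1.25).

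ISCU, the scaffold on which mitochondrial iron-sulfur clusters are built, was lower in hypoxia. It lies on chromosome 12 at 108561463 to 108569384. Its only probe set, 209075_s_at, read 4478 and 4879 in hypoxia, against 9169.96 and 8152 in normoxia. All hypoxia values lay below all normoxia values, by -0.88 ± 0.17 (SE, limma adjusted p = 0.00419). By rank from the brightest, it stood at 2151 and 1978 in hypoxia, against 841 and 1016 in normoxia. After quantile normalization its difference was -1.01, and of the alternatives run, only the fit with no intensity trend lost the call.

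ISCU mRNA is a known target of the hypoxia-induced microRNA miR-210 in human cells, which was not measured here. Its mature strand is shown for that known link, 5′ to 3′, with the seed (bases 2 to 8) in capitals, from RefSeq, chr11:568112-568133 of GRCh38.p14, minus strand.
hsa-miR-210-3p: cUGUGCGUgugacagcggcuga

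**Figure D3:**
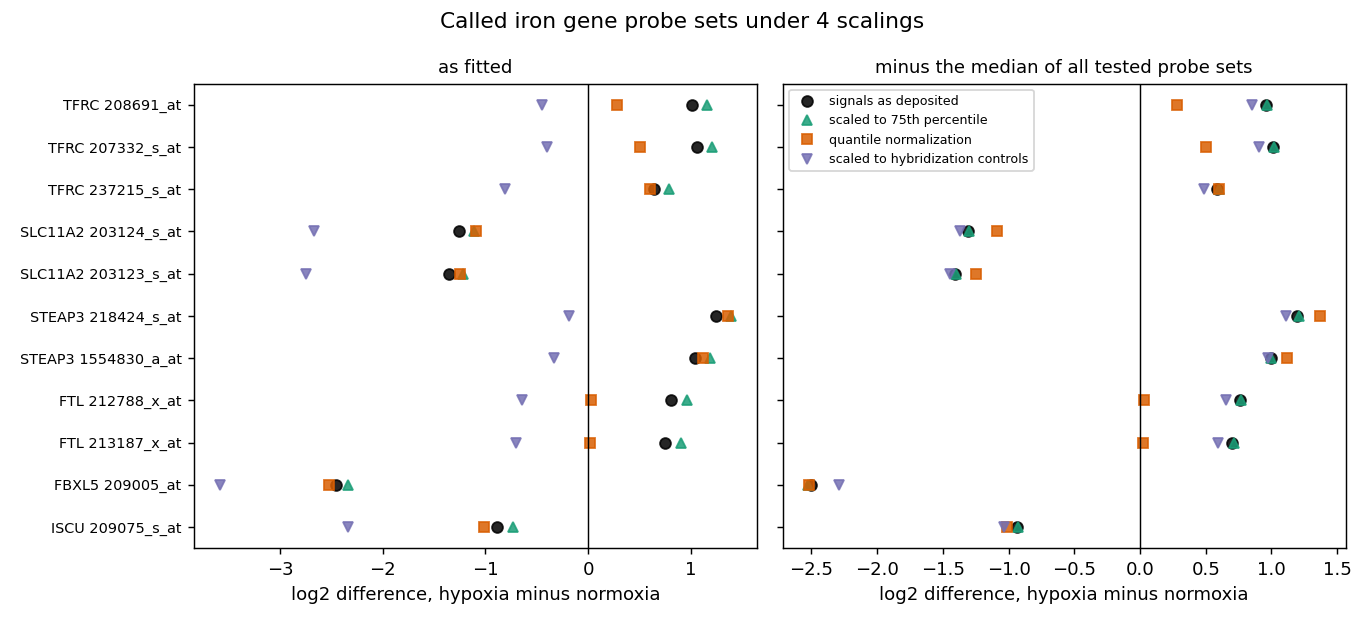
Log2 difference, hypoxia minus normoxia, of the 11 called probe sets under 4 scalings, as fitted (left) and minus the median of all tested probe sets (right). Relative to the median the signs are the same under all 4, the FTL sets lie at 0.03 and 0.02 after quantile normalization, and as fitted the TFRC, STEAP3 and FTL sets lie below 0 when scaled to the hybridization controls.

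The rest of the iron system was described with 7 lists of genes, with 1 probe set per gene. Of all 12636 genes tested, 15.3% were called higher and 22.8% lower, with a median difference of -0.03. Over the 7 lists together 68 genes were tested, 8 were called higher and 28 lower, and the median was -0.29. Without the 10 genes above these were 59 tested, 5 higher and 26 lower.

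Iron-sulfur cluster assembly was the list with the most lower calls. Of 21 tested genes 17 fell, ISCU among them, none was called higher by limma and 4 were not called, with a median of -0.94. By these probe sets IBA57 alone was higher at an unadjusted p under 0.05. CIAPIN1, which takes electrons from NDOR1 in cytosolic cluster assembly, read 849 and 1178 in hypoxia, against 2733 and 2612 in normoxia, a difference of -1.40 ± 0.21 (SE, limma adjusted p = 0.00110). HSCB, the co-chaperone that helps clusters leave ISCU, read 395 and 268 in hypoxia, against 1113 and 843 in normoxia (-1.51 ± 0.30, limma adjusted p = 0.00436).

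For the other named genes of the list only a bound on the difference can be given, because both of their hypoxia values lay below the highest Bacillus signals and they passed the filter through normoxia alone. NDOR1 read 60.3 and 58.2 in hypoxia, against 282 and 300.2 in normoxia (at least 1.11-fold lower). CIAO3, which hands clusters on to target proteins, read 56.7 and 90.9 in hypoxia, against 417 and 335 in normoxia (at least 1.42-fold lower). Their limma adjusted p-values, 0.0286 for NDOR1 and 0.0140 for CIAO3, belong to the fitted differences and not to the bounds. They are not taken as support, though both genes count among the 17 called. With both genes at their bounds the list median was -0.86. Such bounds set the mean log2 normoxia signal against the mean log2 of the highest Bacillus signals of both hypoxia arrays (305 and 226). Against array A alone they would be smaller. For NDOR1 no drop is bounded on array A, because both normoxia values lay below 305. The 4 genes not called were MMS19, GLRX5, FDX1 and IBA57, named after their values were seen, with differences of -0.42, -0.36, -0.16 and 0.79. The other tested IBA57 sets, 231983_at and 236629_at, had the opposite sign (-1.81 and -0.70) and were not called. Of the 17 called genes 6 had further tested probe sets, and none of these had the opposite sign. The count was 6 without normoxia array A and 7 without normoxia array B, beside a list median of -0.98 and -0.94. Over all probe sets, calls in either direction were 4322 and 4481 in these fits, against 8406 with all arrays.

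**Figure D4:**
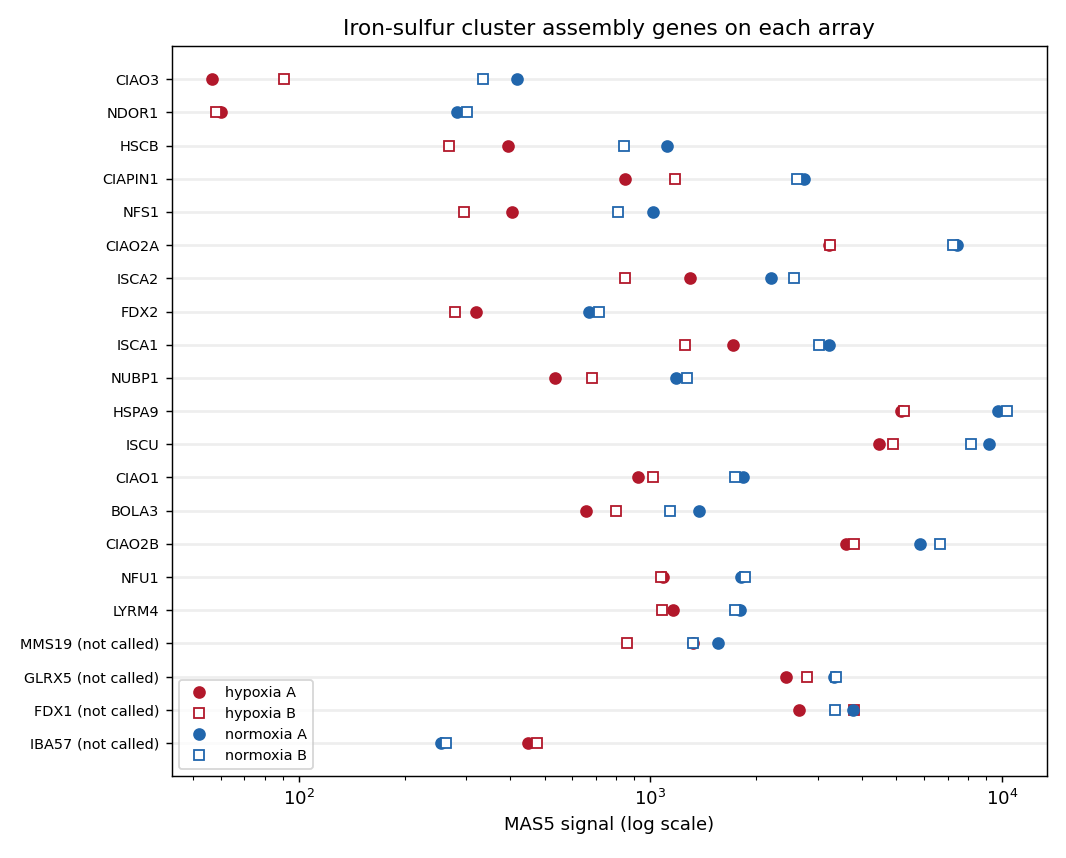
MAS5 signal of the 21 tested iron-sulfur cluster assembly genes on each array, on a log axis, ordered by their log2 difference; red marks hypoxia, blue normoxia, circles A arrays and squares B arrays. For the 17 called genes both hypoxia points lie left of both normoxia points, and the IBA57 set shown, which was not called, lies the other way round, unlike its other tested sets.

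In the uptake list 2 of 11 tested genes were higher, TFRC and STEAP3, and 5 were lower, SLC11A2 and 4 others. LCN2, which binds iron-carrying siderophores, read 286 and 68.4 in hypoxia, against 1439 and 1627 in normoxia. Both hypoxia values lay below the highest Bacillus signals, and against these LCN2 was at least 5.82-fold lower. Its limma adjusted p of 0.00133 belongs to the fitted difference (-3.20 ± 0.50) and not to this bound. STEAP1 (-1.73) and STEAP2 (-1.18), relatives of STEAP3, fell, as did TFR2, another transferrin receptor, by at least 1.27-fold against the Bacillus signals. Of 3 tested STEAP genes, 1 was thus called higher and 2 lower. On hypoxia array A, STEAP1 and STEAP2 lay below the highest Bacillus signal. The list's lower calls numbered 3 without normoxia array A and 2 without normoxia array B.

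Of 6 tested storage and delivery genes 3 were higher and 1 was lower. Beside FTL, the higher genes were PCBP1 and PCBP2, chaperones that carry iron to ferritin, with differences of 0.57 ± 0.16 (limma adjusted p = 0.0183) and 0.87 ± 0.19 (limma adjusted p = 0.00737). The 5 other tested PCBP2 sets ran from -0.99 to 1.48 and none of them was called. With no intensity trend the list had 0 higher calls, as it had when scaled to the hybridization controls. Its higher calls numbered 1 at an adjusted p under 0.01, 2 after quantile normalization and 4 after scaling to the 75th percentile. HERC2, a ubiquitin ligase, was the gene called lower (at least 2.33-fold against the Bacillus signals), a call lost without normoxia array A and without normoxia array B.

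No export gene and no gene of the regulatory protein list was called by limma on its highest-mean probe set, and none had an unadjusted p under 0.05. CP, the ferroxidase ceruloplasmin, read 94.9 and 335 in hypoxia, against 47.3 and 49.7 in normoxia (1.52 ± 0.82, limma adjusted p = 0.173). HAMP, the hormone hepcidin, differed by 0.73 ± 0.61. CP lay below the highest Bacillus signal on hypoxia array A, and HAMP did so on both hypoxia arrays. SKP1 (0.34) and RBX1 (-0.26) are subunits of the ligase that FBXL5 joins, and their unadjusted p-values, 0.110 and 0.152, were the lowest of the 5 regulators. With other settings the export list had 1 higher call without hypoxia array A, and the regulator list 1 higher call without normoxia array B, 1 lower call after quantile normalization and 3 lower calls when scaled to the hybridization controls. Other SKP1 sets, 200711_s_at and 200719_at, were called lower (-1.20 and -0.94).

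Among 19 heme genes 2 were higher and 5 were lower, near the shares of all genes. Of the lower genes, UROS, PPOX and ALAD, enzymes of heme synthesis, lay below the highest Bacillus signals on both hypoxia arrays. Against those signals they were at least 4.18-fold, 1.93-fold and 2.09-fold lower. FECH, ferrochelatase, which inserts iron into the porphyrin ring, read 249 and 310.4 in hypoxia, against 1318 and 1029.9 in normoxia (-1.98 ± 0.28, limma adjusted p = 7.93e-04). On hypoxia array A, FECH too lay below the highest Bacillus signal. UROD, the remaining lower gene, read 793 and 885 in hypoxia, against 2361 and 2269 in normoxia. Both hypoxia values lay above the highest Bacillus signals, and the difference was -1.44 ± 0.19 (limma adjusted p = 5.95e-04). A further PPOX set, 238117_at, stood at 0.03. Further sets of UROS (1568781_at, -3.00), FECH (203115_at, -3.13) and UROD (208971_at, -1.11) were called lower. Those of FECH (229696_at, -1.51) and ALAD (218489_s_at, -1.48) were not called. The higher genes, named after their values were seen, were BLVRB (0.79) and SLC25A37, mitoferrin 1, which brings iron into mitochondria. SLC25A37 read 2958 and 3409 in hypoxia, against 1406 and 1138 in normoxia (1.31 ± 0.19, limma adjusted p = 9.56e-04), and its 7 other tested sets ran from 1.66 to 2.61. Without normoxia array A the list had 1 higher and 3 lower calls, and without normoxia array B it had 2 higher and 3 lower.

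**Figure D5:**
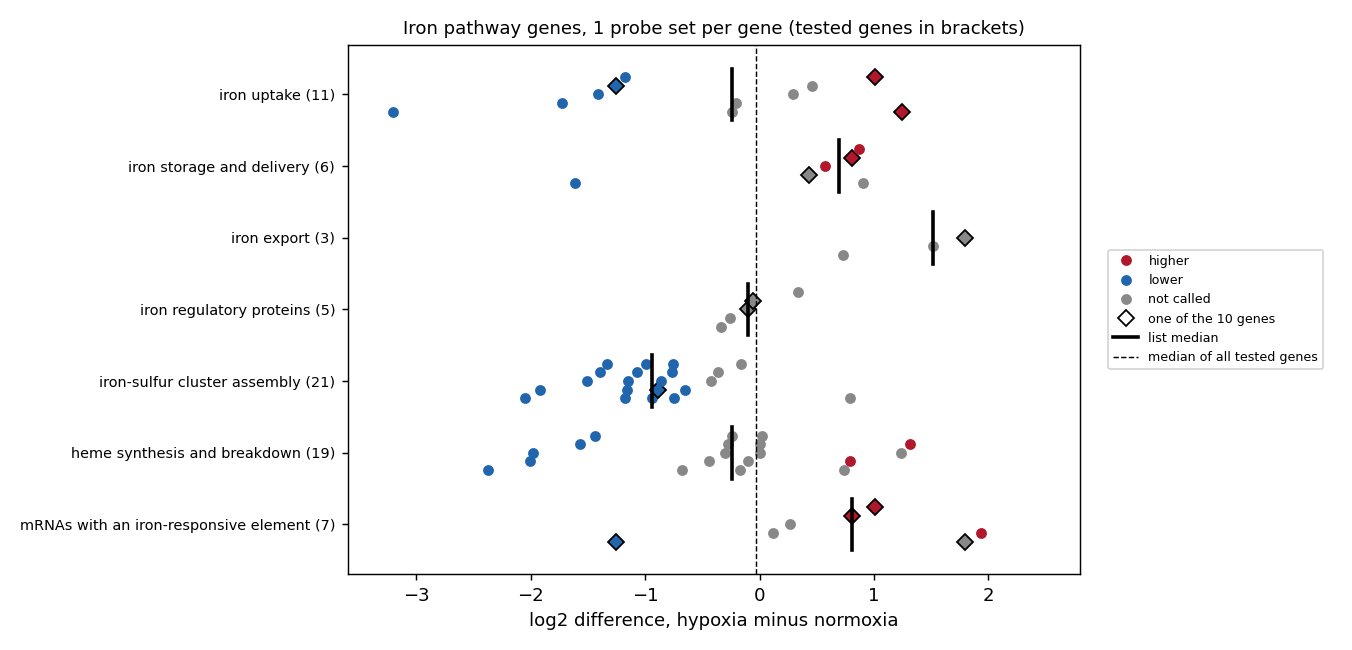
Log2 difference, hypoxia minus normoxia, of each tested gene of the 7 lists, 1 probe set per gene; red and blue points are genes called higher and lower, grey points genes not called, diamonds those of the 10 genes, black bars list medians and the dashed line the median of all tested genes. The iron-sulfur list sits at a median of -0.94, while the uptake list holds TFRC and STEAP3 on the right and LCN2, not above the Bacillus signals in hypoxia, farthest to the left; all higher calls are lost under scaling to the hybridization controls.

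The 7 tested mRNAs known to carry an iron-responsive element held 3 higher calls and 1 lower. The gene outside the 10 that was called was EPAS1, which encodes a hypoxia-inducible factor subunit, at 9854 and 11830.0 in hypoxia against 2642 and 2969 in normoxia (1.94 ± 0.17, limma adjusted p = 1.08e-04). A second EPAS1 set differed by 0.88 and was not called. Of 7 tested genes of a hypoxia check list all 7 were higher, with a median difference of 2.10, and VEGFA, NDRG1 and ANKRD37 are among them.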

How the data were processed

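The authors deposited linear intensities, 1 MAS5 signal for each probe set and array. MAS5 is named, without a version, in the submitters' processing notes. With 2% of values trimmed at each end the mean was 500.1 on every array, which hides any shift common to most genes. No 2 arrays shared more than 1 identical value. Signals were taken as log2(signal + 23.7), the 25th percentile of all values, and fitted by limma 3.58.1 (R 4.3.3; lmFit, then eBayes with trend), as two-sided tests. Adjustment was by Benjamini-Hochberg over every feature tested. The number of arrays limits the precision.

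Gene names came from the platform's probe-to-gene table: 41091 were listed for 1 gene, 1801 for several and 11721 for none, beside 62 controls. Of 19775 genes, 19735 were matched to a RefSeq gene table. The genes, lists and tests were chosen with earlier results of these data known. The text names every probe set of the 10 genes and, of each list, at most 4 other called genes by size, or the 2 of lowest p in a list with no call. Of the hypoxia check list up to 3 genes are named in list order. Epithelial markers, uncalled iron-sulfur genes, UROD, higher heme genes and other probe sets of list genes were named after their values were seen. The bound for signals below the Bacillus controls was chosen then too. A planned comparison of ACO1 with IREB2 and of their proteins was not possible with the tables used here. The fits of probe sets and of pairs were run on simulated arrays with known changes. Those arrays had equal spread in both groups and no background floor, so they cannot test these limits. The alternatives were other pseudocounts, filters, scalings, variance models and thresholds, 1 or averaged probe sets per gene, a replicate block and leaving out each array. Promoters and the microRNA come from RefSeq tables of GRCh38.p14. Plots used Python 3.11.15 and matplotlib 3.10.9.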

Additional observations from a re-analysis of the deposited data

How the results depend on the processing

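With all arrays, 11 iron gene probe sets were called (7 higher, 4 lower). The count was 5 (3 higher, 2 lower) with 1 probe set per gene and 5 (3 higher, 2 lower) at an adjusted p under 0.01, and 4 gene means (2 higher, 2 lower) were called when a gene's sets were averaged. Without an intensity trend limma called 2, with 0 higher and 2 lower, against 6 higher and 4 lower at an unadjusted p under 0.05. With no filter 4 were called higher, without TFRC 237215_s_at, STEAP3 1554830_a_at and FTL 213187_x_at. When scaled to the hybridization controls 4 were called, with 0 higher by limma and also 0 higher at an unadjusted p under 0.05. There TFRC turned to -0.45, -0.40 and -0.81, STEAP3 to -0.19 and -0.33, FTL to -0.65 and -0.70, NCOA4 to -1.02 and ACO1 237622_at to -1.18, beside a median of -1.30 for all probe sets. Leaving out each array in turn gave 6 to 12 called, 3 to 8 higher and 1 to 4 lower.

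The count of called list genes was 36 (8 higher, 28 lower) with all arrays and 18 to 43, with 12 to 33 lower, on leaving out an array. The higher count was 5 with no intensity trend and 0 when scaled to the hybridization controls, also 0 at an unadjusted p under 0.05. The count of called pairs of probe sets was 1, and became 2 with a pseudocount of 100, 0 of those left with a filter at the 75th percentile, and 0 to 6 on leaving out an array. At an unadjusted p under 0.05 limma gave 1 pair without normoxia array A and 6 without normoxia array B.

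Values that were not called also changed sign. After quantile normalization SLC11A2 203125_x_at stood at 0.015, ACO1 207071_s_at at 0.068 and FBXL5 209004_s_at at 0.039, and after scaling to the 75th percentile at 0.015, 0.049 and 0.091. TFRC 240686_x_at was 0.029 with a pseudocount of 100, and the mean of the ACO1 sets was 0.031. On leaving out an array, the values ran from -1.57 to 1.23 for TFRC 240686_x_at, -0.33 to 0.074 for SLC11A2 203125_x_at, -0.37 to 0.18 for ACO1 207071_s_at, -0.40 to 0.72 for ACO1 237622_at and -0.18 to 0.072 for FBXL5 209004_s_at. Differences between the sets of 1 gene ran from -0.62 to 0.11 (ACO1), -0.026 to 0.14 (FTL), -0.27 to 0.46 (SLC11A2 203124_s_at minus 203123_s_at) and -0.21 to 0.62 (STEAP3). Against TFRC 240686_x_at they ran from -0.23 to 2.60 for 208691_at, -0.19 to 2.66 for 207332_s_at and -0.39 to 2.02 for 237215_s_at. After quantile normalization 208691_at and 207332_s_at minus 237215_s_at were -0.32 and -0.10.

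The letters A and B, given as exp A and exp B, are shared by both groups. The deviations of same-letter arrays correlated by 0.06 over probe sets, which cannot exclude a paired design. The main fit did not pair them. With the letter as a replicate block 11 iron gene probe sets were called, 7 higher and 4 lower, with 37 list genes and 3 pairs, which were that of FBXL5 and those of SLC11A2 203124_s_at and 203123_s_at with 210047_at (-3.02 and -3.11). Over all alternatives, for single probe sets and gene means, 234 values kept direction and side of the threshold. With the sign kept, 34 lost the call and 3 gained it, and 25 changed sign. Among those 25 were the 7 sets called higher, which also lost the call when scaled to the hybridization controls. With 2 arrays per group, and hypoxia signals of dim sets below the Bacillus controls, small changes could not be resolved.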
